A study of Mus musculus with 60 samples.

Results

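The comparison described here is of the dorsal with the ventral dentate gyrus (DG) of mice kept in standard housing (SH), measured by RNA-Seq. Its members are the RNA-Seq libraries of dorsal and ventral DG in SH with replicate numbers 1, 2, 4 and 5, which makes 8 of the 60 samples of the series, 4 for each region. The study excluded 1 SH sample for its *Xist* counts without naming it. It is inferred to be replicate 3, which was left out here in both regions. The mice were male C57/Bl/6 animals without a genetic change, weaned on day 22, kept for 8 weeks in cages of 3 males from different mothers, and killed on day 80. Each library holds RNA of punches from several pooled mice, and the dorsal and ventral libraries of 1 replicate number came from the same pool, so that the 4 pools are the replicates and no value belongs to a single mouse. The rest of the series holds libraries of mice raised in an enriched environment (EE) and of DNA methylation and hydroxymethylation in the same tissue.

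The DG is the entry of the hippocampal circuit: its granule cells receive input from the entorhinal cortex and project by mossy fibers to hilar mossy cells and CA3 pyramidal cells, and new granule cells are added to it in adult life. The hippocampus is graded along its long axis, with the dorsal pole tied to spatial learning and the ventral pole to emotion and stress. Granule cells of both poles share a core identity, set by factors such as PROX1.

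**Figure D1:**
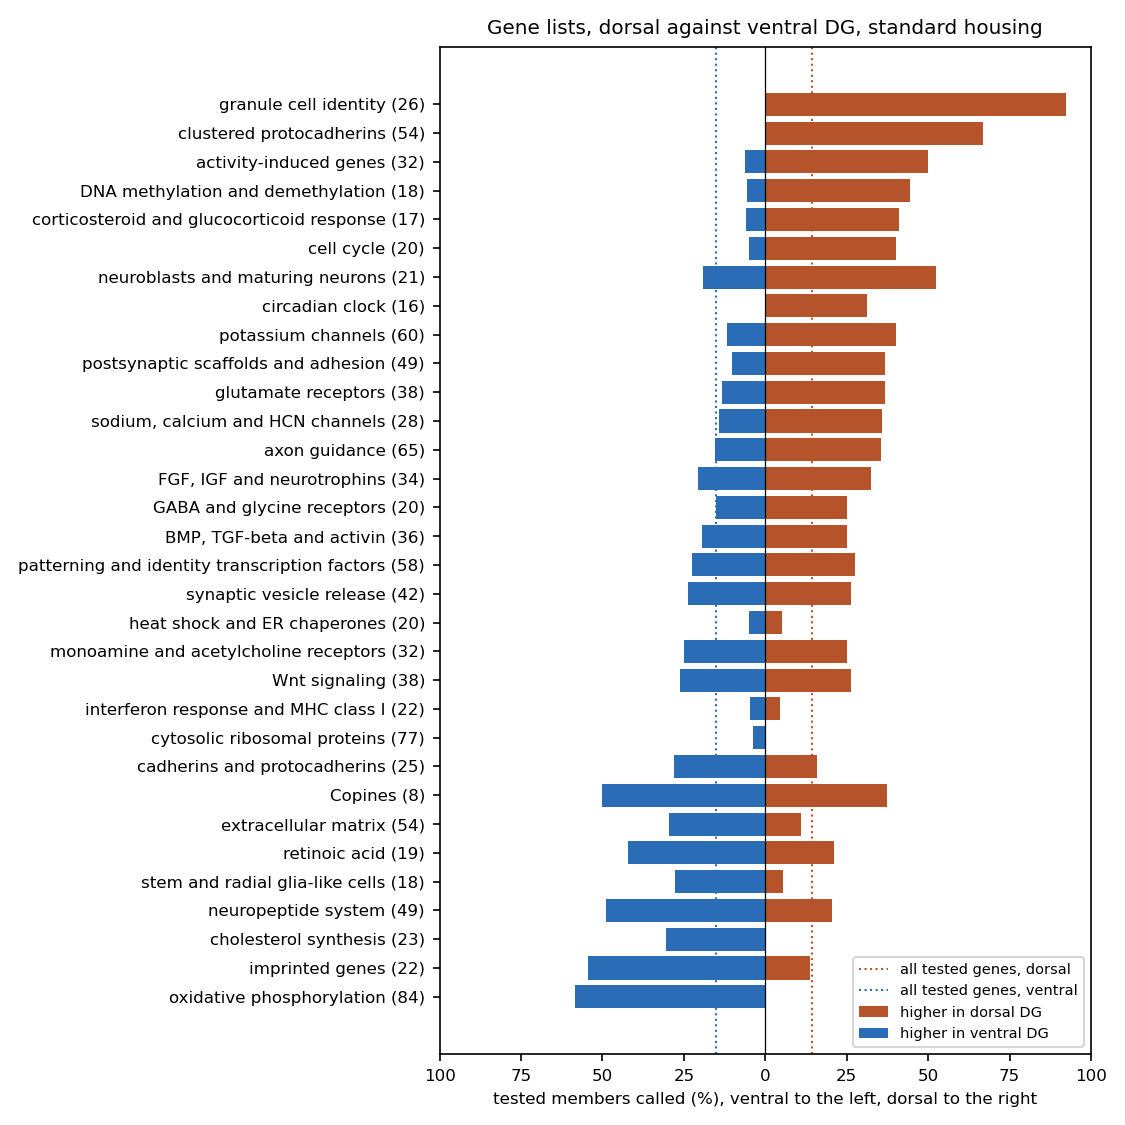
Share of the tested members of 32 gene lists that passed the test, in percent, with genes higher in dorsal DG to the right and genes higher in ventral DG to the left. The number of tested members stands in parentheses and the dotted lines mark the shares over all tested genes (14.2% dorsal and 15.1% ventral). Granule cell identity genes and clustered protocadherins lie far to the right, and oxidative phosphorylation, imprinted genes and the neuropeptide system far to the left.

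The regional difference was broad. Of 16604 tested genes, 2360 (14.2%) were higher in dorsal DG and 2505 (15.1%) were higher in ventral DG, at an adjusted p under 0.05 and a fold change over 20% in edgeR's quasi-likelihood test with the pool as a block and Benjamini-Hochberg adjustment. These 2 shares are the background for every count of list members below, and a gene that passed is called higher in the region named. In each list the 3 largest called genes in each direction and the best expressed gene that did not pass are given by rule, and further members are named for their function with their values known. The median log2 fold change (dorsal over ventral in all that follows) was 0.46 among the former and -0.47 among the latter, and -0.01 over all genes tested. A difference over 2-fold was seen for 325 genes higher in dorsal DG (1.96%) and for 471 higher in ventral DG (2.84%). Most of these were of low abundance, and among 12047 genes over a TPM of 1 in at least 3 libraries 82 (0.681%) and 109 (0.905%) differed over 2-fold. Among protein-coding genes alone the counts over 2-fold were 146 (1.02%) and 423 (2.94%). Many of the low-abundance dorsal genes were not protein-coding: 225 of 529 tested genes of the annotation class TEC, whose gene models await experimental proof (42.5%) and 25 of 70 sense intronic genes (35.7%) were higher in dorsal DG, against 6 and 1 that were higher in ventral DG. A share of the mapped fragments was assigned to no gene by the stranded count. It was 12.4% to 13.5% of all fragments in the dorsal libraries and 10.5% to 12.5% in the ventral ones. Such fragments can lie between genes, in introns or on the opposite strand. The part of this share in those classes was not tested.

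The libraries held 23522050 to 28186346 fragments counted on genes, and the first principal component, with 60.5% of the variance, separated the regions. Along the second component (10.4%) dorsal replicate 2 and ventral replicate 1 had the lowest scores of their regions. Both had more counts on short genes and fewer on long ones than the other libraries of their region (median deviations of 0.09 and 0.09 on the log2 scale in the shortest of 10 length classes, and -0.05 and -0.06 in the longest). Dorsal replicate 1 stood apart by markers of choroid plexus and of habenula and thalamus, described with the cell types below. With replicates 4 and 5 alone, which leaves out all 3 libraries, 1960 genes were higher in dorsal DG and 2081 in ventral DG. Replicates of a group differed by more than counting noise in every pair (chi-square per degree of freedom of 2.6 to 12.0), so none was counted as a copy of another.

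The leading dorsal genes were a transcription factor, an enzyme of retinoic acid breakdown, a dopamine receptor and a set of kinases and secreted inhibitors. *Mafa* (chr15:75745490-75748228, minus strand; mm10 here and below), a large Maf transcription factor known from pancreatic beta cells, had 2.81, 2.08, 2.31 and 2.32 CPM (counts scaled by library size, so that libraries can be compared) in dorsal replicates 1, 2, 4 and 5, and at 0.142, 0.0378, 0.081 and 0.146 CPM in the ventral libraries of the same pools. All dorsal libraries lay above all ventral ones, a separation seen in one direction or the other for 38.9% of all tested genes, though the ventral values rest on a handful of fragments each, and the log2 fold change was 4.47 ± 0.28 (SE; adjusted p = 1.16e-08). *Cyp26b1* (chr6:84571414-84593908, minus strand), the enzyme that breaks down retinoic acid, had 41.5, 30.3, 36.7 and 32.6 CPM in dorsal DG and 4.55, 3.33, 4.13 and 3.0 CPM in ventral DG. Its log2 fold change was 3.23 ± 0.07 (adjusted p = 3.45e-13), a 9.41-fold difference with no overlap. *Drd1* (chr13:54051183-54055705, minus strand), the D1 dopamine receptor, was at 11.7, 10.2, 11.1 and 9.96 CPM in dorsal DG and at 2.03, 1.97, 1.82 and 2.2 CPM in ventral DG (2.41 ± 0.10; adjusted p = 2.30e-10).

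Within each region the 4 values of these genes were close together, and the regions were set apart by several times that spread, as the plot of leading genes by library shows. *Prkcd*, a protein kinase C that is also a marker of thalamic neurons, had 101, 73.5, 77.5 and 75.7 CPM in the dorsal and 15.9, 13.2, 18.9 and 17 CPM in the ventral libraries (2.33 ± 0.08; adjusted p = 4.85e-11). The highest value was in dorsal replicate 1, which also had the most habenula and thalamus RNA, and without that pool the log2 fold change was 2.21. *Mylk3*, a myosin light chain kinase, differed by 2.50 ± 0.13, *Fst*, the activin-binding protein follistatin, by 1.99 ± 0.14, and *Fstl4*, a follistatin-like protein, by 1.89 ± 0.09. *Pla2g2f*, a secreted phospholipase A2, *Smtnl2*, a smoothelin-like protein, and *Syn3*, a synapsin of the vesicle surface, had log2 fold changes of 1.96, 1.88 and 1.88.

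The leading ventral genes held a protease inhibitor, a peptide and a peptide receptor, a calcium-binding copine and a group of choroid plexus genes. *Trhr* (chr15:44196135-44235912, plus strand), the receptor of thyrotropin-releasing hormone, had 1.23, 1.39, 1.71 and 1.24 CPM in the dorsal and 20.2, 26, 23 and 23.9 CPM in the ventral libraries, a log2 fold change of -4.07 ± 0.10 (adjusted p = 6.04e-13). *Cpne7* (chr8:123117374-123135182, plus strand), a copine, had 17.4, 14.4, 17.6 and 14.6 CPM in dorsal DG and 198, 201, 198 and 223 CPM in ventral DG (-3.68 ± 0.07; adjusted p = 7.69e-14). *Grp* (chr18:65872820-65886596, plus strand), gastrin-releasing peptide, stood at 1.12, 0.939, 1.54 and 1.57 CPM in dorsal DG and at 12.3, 14.2, 11.1 and 12.8 CPM in ventral DG (-3.28 ± 0.14; adjusted p = 1.59e-10). For these 3 genes the lowest ventral library held several times the level of the highest dorsal one.

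*Glipr1*, which encodes a secreted protein of the CAP family, had 0.18, 0.0817, 0.214 and 0.30 CPM in dorsal and 2.7, 2.84, 2.55 and 2.85 CPM in ventral DG (-3.78 ± 0.25). *Serpina3g*, a serine protease inhibitor, had 0.0721, 0.0817, 0.342 and 0.0749 CPM in dorsal and 3.7, 3.18, 3.16 and 4.32 CPM in ventral DG, a log2 fold change of -4.67 ± 0.30. It belongs to a cluster of near-identical copies, so its count is uncertain where fragments could fit a neighbor. The other leading ventral genes by the same rule were *Ttr* (-4.18), *Folr1* (-3.51), *Kcnj13* (-3.47), *Kcne2* (-3.14) and *Calml4* (-3.12), all of them markers of choroid plexus.

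**Figure D2:**
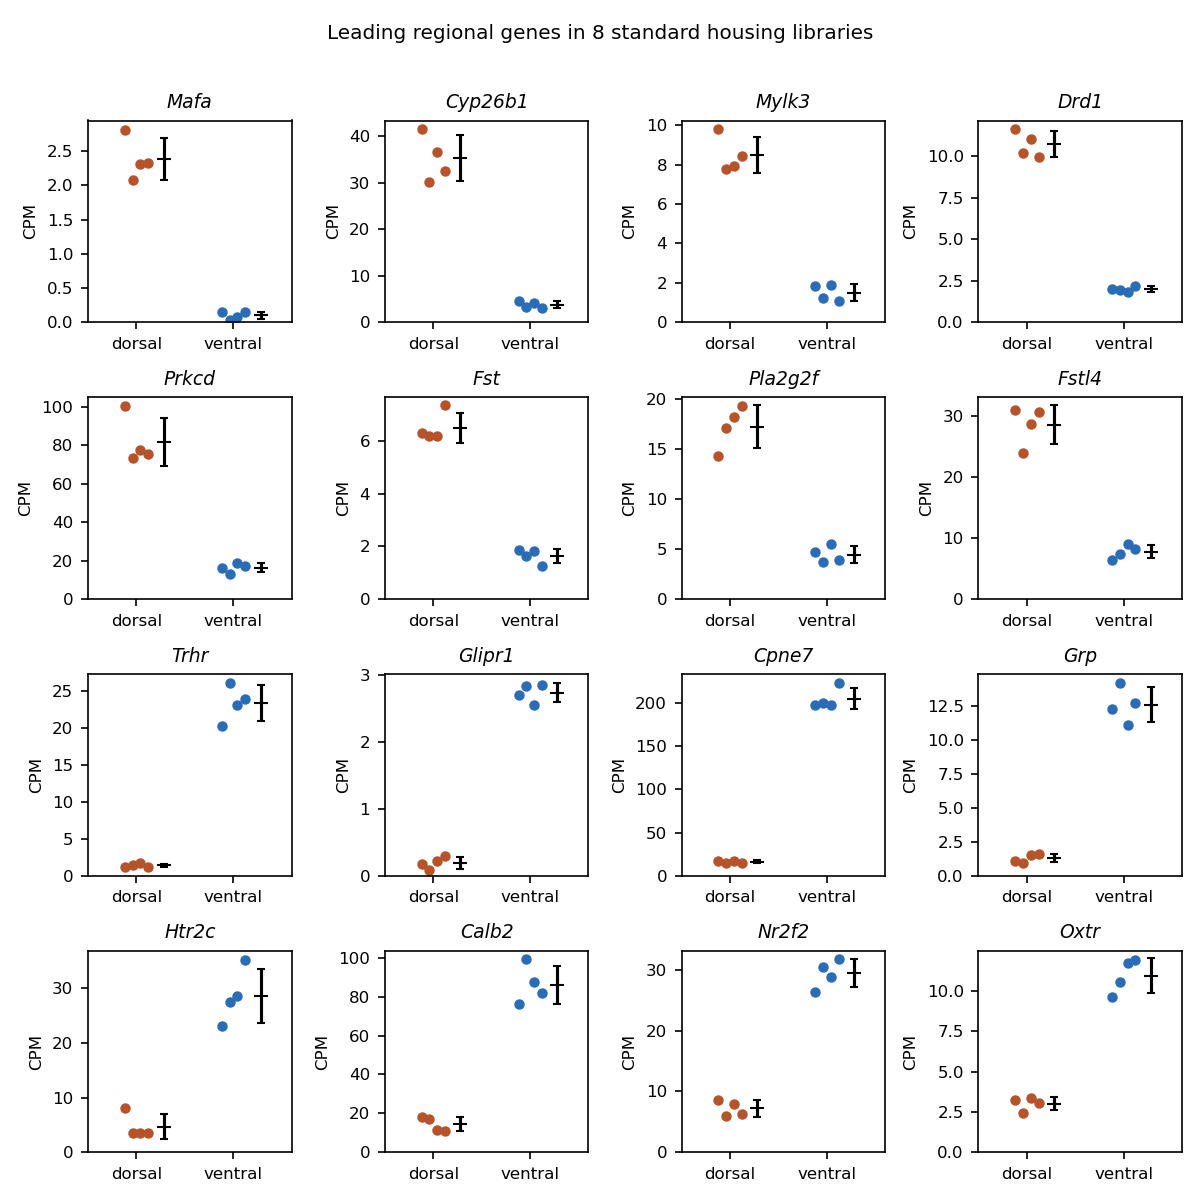
CPM of 16 genes in each of the 8 libraries, with dorsal libraries in red and ventral libraries in blue, in the order of replicates 1, 2, 4 and 5 from left to right. The black marks give the mean and SD of 4 libraries on a linear axis that starts at 0. No dorsal library overlaps a ventral library for any of these genes.

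The 250 bases before the transcription start are given for 6 genes, to set a regulatory sequence beside the difference, chosen among the described genes with a promoter in the RefSeq table (build GRCm38.p6): an enzyme and a receptor that were higher in dorsal DG, a transcription factor and 2 receptors that were higher in ventral DG, and *Cox7b*, a subunit of respiratory complex IV. The bases run 5′ to 3′ on the strand of the gene. The starts here and below are those of RefSeq. They lay 98, 47, 11 and 118 bases from the Gencode 5′ end for *Cyp26b1*, *Drd1*, *Nr2f2* and *Oxtr*, and at it for *Htr2c* and *Cox7b*. The windows of *Cyp26b1* and *Drd1* therefore reach into the gene positions given above. Capitals mark matches, on either strand, to short motifs searched in all promoters: CAGATG (the E-box of NeuroD-type factors), AGGTCA (the core site of nuclear receptors such as the NR2F and RXR proteins), ACTTCCGG (ETS factors) and TATAAA (the TATA box, given strand only).
Cyp26b1 (chr6:84593811-84594060, minus strand): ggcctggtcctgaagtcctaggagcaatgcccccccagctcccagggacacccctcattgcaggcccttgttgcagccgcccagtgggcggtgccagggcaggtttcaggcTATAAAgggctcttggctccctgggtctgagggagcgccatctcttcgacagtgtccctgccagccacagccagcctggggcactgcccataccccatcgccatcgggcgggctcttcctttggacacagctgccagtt
Drd1 (chr13:54055659-54055908, minus strand): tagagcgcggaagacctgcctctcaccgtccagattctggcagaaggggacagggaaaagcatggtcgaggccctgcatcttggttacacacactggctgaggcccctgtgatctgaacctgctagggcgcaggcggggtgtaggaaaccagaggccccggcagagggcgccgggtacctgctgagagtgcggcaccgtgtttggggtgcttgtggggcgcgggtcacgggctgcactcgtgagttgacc
Nr2f2 (chr7:70366747-70366996, minus strand): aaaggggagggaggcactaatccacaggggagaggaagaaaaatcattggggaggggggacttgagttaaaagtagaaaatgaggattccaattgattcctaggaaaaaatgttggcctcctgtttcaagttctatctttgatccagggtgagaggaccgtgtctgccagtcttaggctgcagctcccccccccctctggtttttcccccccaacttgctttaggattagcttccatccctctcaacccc
Oxtr (chr6:112489826-112490075, minus strand): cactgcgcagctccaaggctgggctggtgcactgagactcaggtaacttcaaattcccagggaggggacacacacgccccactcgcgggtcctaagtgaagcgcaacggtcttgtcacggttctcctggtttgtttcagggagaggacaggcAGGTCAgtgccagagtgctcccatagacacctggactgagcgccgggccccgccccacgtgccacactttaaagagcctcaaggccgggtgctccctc
Htr2c (chrX:146962263-146962512, plus strand): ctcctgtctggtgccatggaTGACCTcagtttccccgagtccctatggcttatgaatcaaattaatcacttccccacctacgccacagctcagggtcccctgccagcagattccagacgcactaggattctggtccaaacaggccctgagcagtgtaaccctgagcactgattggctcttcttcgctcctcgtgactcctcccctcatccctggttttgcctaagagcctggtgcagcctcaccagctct
Cox7b (chrX:106015450-106015699, plus strand): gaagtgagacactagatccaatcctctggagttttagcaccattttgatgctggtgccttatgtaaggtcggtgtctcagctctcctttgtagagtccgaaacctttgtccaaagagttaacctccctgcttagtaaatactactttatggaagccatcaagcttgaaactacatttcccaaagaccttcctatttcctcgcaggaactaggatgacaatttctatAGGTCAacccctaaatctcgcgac

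The promoter windows of 250 bases before to 50 bases after the start were matched for 11883 tested genes. The nuclear receptor site was in 11.8% of them, and among those shown in *Oxtr*, *Htr2c* and *Cox7b* (98, 230 and 24 bases before the start). It was in 13.2% of 340 windows of genes higher in ventral DG over 2-fold, in 9.48% of 116 windows of genes higher in dorsal DG over 2-fold, and in 22.4% of 67 windows of oxidative phosphorylation genes. A TATA box was in 4.40% of all windows, in 8.62% of the dorsal and in 10.9% of the ventral genes over 2-fold, and the one in *Cyp26b1* began 139 bases before the start. The ETS motif was in 7.60% of all windows, in 2.65% of the ventral genes over 2-fold and in none of the 116 dorsal ones. The E-box was in 15.5% and 16.2% of the dorsal and ventral genes over 2-fold, in 10.5% and 13.9% of all genes called in these directions and in 11.9% of all windows. The median GC content was 58.3% and 55.7% for the dorsal and ventral genes over 2-fold and 60.7% over all windows. A match here describes letters and not a bound site.

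Both regions carried the identity of granule cells, and the genes listed for it here were higher in dorsal DG almost without exception. *Prox1*, the transcription factor that defines granule cells, had 275, 229, 241 and 266 CPM in the dorsal and 120.5, 133, 146 and 134 CPM in the ventral libraries (0.92 ± 0.07; adjusted p = 5.68e-08). The 2 regions did not overlap, and all 8 libraries expressed the gene well. Of 26 identity genes, all tested, 24 were higher in dorsal DG (against a background of 14.2%) and none was higher in ventral DG, with a median log2 fold change of 0.81 against -0.01 over all genes. The list was chosen with earlier results of these data known. It holds *Lct*, which the paper names among genes already reported as higher in dorsal granule cells, so the count describes this list alone.

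Among them *Lct*, the lactase gene, had 215 ± 14.6 CPM against 62.8 ± 10.0 CPM (mean ± SD, n = 4; dorsal first here and below), *Fam163b*, a small membrane protein, had 49.6 ± 2.22 CPM against 14.2 ± 1.95 CPM, and *Dsp*, the junction protein desmoplakin, had 213 ± 26.9 CPM against 80.3 ± 13 CPM, with log2 fold changes of 1.79, 1.81 and 1.41. *Bcl11b*, a zinc finger factor of postmitotic granule cells, had a log2 fold change of 0.98, *Lrrtm4*, a synaptic adhesion protein, of 0.91, *Gabrd*, the extrasynaptic GABA-A subunit, of 0.66 and *Klf9*, a glucocorticoid-responsive factor, of 0.57. *Calb1*, calbindin, had a log2 fold change of 0.25 ± 0.06, just under the fold limit, and *Synpr*, a vesicle protein of mossy fibers, had 415 ± 23.1 CPM against 404 ± 23.7 CPM (0.04 ± 0.05; adjusted p = 0.616). In bulk tissue, fewer granule cells in a punch and less RNA of these genes in each cell cannot be told apart, and the same holds for every list below.

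Markers of other cells in the punches moved in several ways. All 16 choroid plexus markers and all 7 ependyma markers were higher in ventral DG, with median log2 fold changes of -2.72 and -1.89. The summed choroid plexus level was 446, 181, 149 and 174 CPM in the dorsal libraries and 665, 914, 1014 and 1825 CPM in the ventral ones, and the summed ependyma level was 7.60 to 10.9 CPM and 15.7 to 22.6 CPM. *Ttr*, transthyretin, alone had 174, 29.4, 6.11 and 22.9 CPM in dorsal and 349.9, 529.9, 543 and 995 CPM in ventral DG. Dorsal replicate 1 was the highest dorsal library for both lists. Without that pool the median of the choroid plexus list was -4.18, with 16 of 16 markers still higher in ventral DG. *Enpp2*, which choroid plexus shares with oligodendrocytes, differed less (-1.35 ± 0.22). Ependymal *Foxj1*, the regulator of motile cilia, and *Rarres2*, chemerin, had 3.86 against 6.23 CPM and 3.22 against 6.13 CPM. The part of this epithelium in other ventral genes was not tested.

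Markers of oligodendrocytes (12), microglia (12) and endothelial cells (12) had none that passed in either direction, with medians of 0.04, -0.05 and 0.01; 1 oligodendrocyte marker passed without replicate 5 and 1 microglia marker without replicate 4. Among astrocyte markers 4 of 13 were higher in ventral DG (median -0.21): *Agt*, angiotensinogen, had 24.7 ± 4.73 CPM against 45.8 ± 7.02 CPM, *S100b* had 101 ± 11.2 CPM against 154 ± 24.8 CPM and *Aldoc*, aldolase C, had 858 ± 63.5 CPM against 1176 ± 124 CPM, with the growth factor receptor *Fgfr3* (-0.36) as the fourth, while *Gfap* (-0.10 ± 0.06) and the glutamate transporter *Slc1a2* (-0.06 ± 0.05) did not pass. The summed astrocyte level overlapped between regions, with 8277 to 9599 CPM in dorsal and 8906 to 10760 CPM in ventral DG. For oligodendrocyte precursors *Olig1* was the 1 of 8 markers that was higher in ventral DG (-0.35), for mural cells *Tagln*, transgelin, was the 1 of 8 (-0.31; not without replicate 2 or replicate 4), and for fibroblasts and meninges 3 of 10 were (*Dcn*, decorin, -1.13; *Lum*, lumican, -0.43; *Igf2*, -0.43).

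Interneuron markers leaned to ventral DG, where 6 of 12 were higher, against 1 in dorsal DG (2 without replicate 2). The summed interneuron level overlapped between regions, with 772 to 881.5 CPM in dorsal and 815.7 to 982.1 CPM in ventral DG. *Sst*, somatostatin, had 47.5, 52, 47.2 and 49 CPM in the dorsal and 95.7, 101, 92.2 and 92 CPM in the ventral libraries (-0.96 ± 0.05; adjusted p = 6.53e-10). *Vip* (7.21 against 12.9 CPM), the serotonin receptor *Htr3a* (9.5 against 16.5 CPM) and the cannabinoid receptor *Cnr1* (228 against 295 CPM) were higher in ventral DG too, *Adarb2*, a marker of interneurons from the caudal ganglionic eminence, was higher in dorsal DG (63.5 against 40.2 CPM), and *Gad1*, the GABA-synthesizing enzyme, did not pass the fold limit (0.22 ± 0.06). *Calb2*, calretinin, which marks mossy cells and some interneurons, had 18, 17.1, 11.5 and 11.2 CPM in dorsal and 76.2, 99.1, 87.4 and 82 CPM in ventral DG (-2.58 ± 0.10; adjusted p = 9.55e-11). *Nmb*, neuromedin B, was the 1 of 6 mossy cell markers higher in dorsal DG (0.54; not without replicate 5). *Calb2* was the 1 higher in ventral DG, and the median of the 6 was 0.03. Their summed level was 69.8 to 82.3 CPM in dorsal and 129 to 160 CPM in ventral DG. Without *Calb2* it was 57.5 to 64.3 CPM and 53.2 to 60.8 CPM.

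Among CA3 pyramidal markers 3 of 7 were higher in ventral DG, *Nectin3* (-0.58), *Grik4* (-0.49) and *Homer3* (-0.43), and *Iyd* (1.34) was higher in dorsal DG. The summed CA3 level was 325 to 339 CPM in dorsal and 400 to 446 CPM in ventral DG. CA2 markers went mostly the other way, with *Cacng5* (1.25), *Map3k15* (0.85) and *Pcp4* (0.48) of 6 higher in dorsal DG and *Amigo2* (-1.06) higher in ventral DG. Of 8 CA1 and subiculum markers 2 were higher in dorsal DG (*Pou3f1*, 0.90; *Wfs1*, 0.71) and 3 in ventral DG (*Gpr161*, -0.43; *Fibcd1*, -0.33; *Mpped1*, -0.26), of which 1 was left without replicate 1 or without replicate 2. Of the 3 tested Cajal-Retzius cell markers *Trp73*, the p53 family factor p73, was higher in dorsal DG (1.43), and *Reln*, reelin, did not pass (0.17 ± 0.05). The habenula and thalamus list had 5 of 9 tested members higher in dorsal DG and 1 higher in ventral DG (none without replicate 1 or replicate 5), with a summed level of 354, 293, 269 and 273 CPM in the dorsal and 193 to 202 CPM in the ventral libraries. *Prkcd* made up 73.5 to 100.8 CPM of that sum, *Ramp3*, a receptor activity-modifying protein, had 8.54 ± 2.28 CPM against 3.37 ± 0.694 CPM and *Slc17a6*, the vesicular glutamate transporter of thalamic neurons, had 20.7, 18.4, 9.18 and 10.1 CPM in dorsal DG and 10.9, 7.71, 8.26 and 9.7 CPM in ventral DG. With replicates 4 and 5 alone the median of the list went from 0.62 to 0.12 and 3 members were higher in dorsal DG. *Slc17a6* overlapped between the regions, and dorsal replicates 1 and 2 held its highest values.

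**Figure D3:**
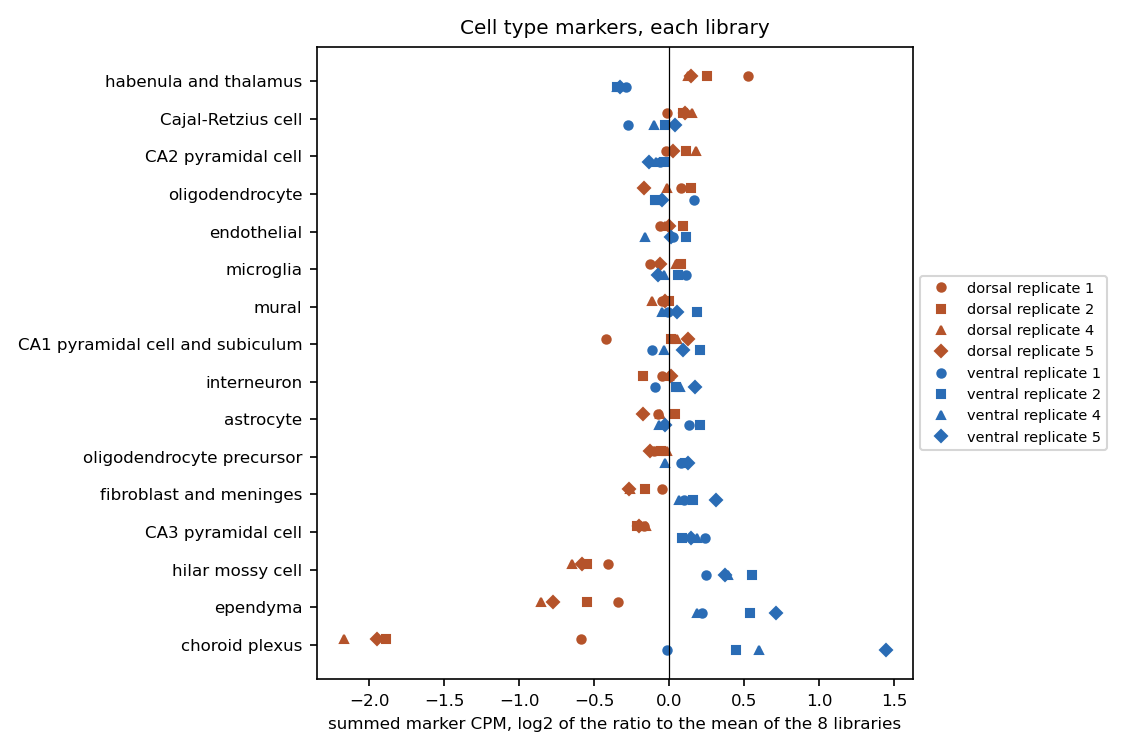
Summed CPM of the markers of 16 cell types in each library, as the log2 ratio to the mean of the 8 libraries, with dorsal libraries in red and ventral libraries in blue and a symbol for each pool. Choroid plexus and ependyma lie further to the right in every ventral library than in any dorsal one, with dorsal replicate 1 between the other dorsal libraries and the ventral ones for choroid plexus, and glial and vascular types lie near 0.

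Markers of the stages of adult neurogenesis were called in both directions. Of 18 markers of stem and radial glia-like cells 5 were higher in ventral DG, 1 in dorsal DG and 12 had no call (median -0.10; -0.16 without replicate 4 and -0.06 without replicate 5). The ventral share was 27.8%, against 30.8% in the astrocyte list above. The Notch effectors *Hes1* (6.41, 6.16, 5.94 and 5.88 against 11.7, 13, 9.84 and 13 CPM) and *Hes5* (9.38 against 14.5 CPM) and the fatty acid binding protein *Fabp7* (31.4 against 52.8 CPM) led them, with log2 fold changes of -0.96, -0.63 and -0.76. Of 21 markers of neuroblasts and maturing neurons 11 were higher in dorsal DG and 4 in ventral DG (median 0.29). All 6 called regulators among them were higher in dorsal DG, with *Tbr1*, a T-box factor of intermediate progenitors and young neurons, at 0.88 and *Bhlhe22*, a basic helix-loop-helix factor, at 0.64, while *Igfbpl1*, an IGF-binding protein-like gene of neuroblasts, was at 1.04 and the doublecortin gene *Dcx* at 0.62. The growth cone genes *Stmn2* (-0.52) and *Dpysl3* (-0.34) and *Elavl2*, a neuronal RNA-binding protein (-0.38), were higher in ventral DG.

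Of 20 cell cycle genes 8 were higher in dorsal DG and 1, *Ccnd1* (cyclin D1; 30.6 ± 3.07 CPM against 50.4 ± 4.78 CPM), was higher in ventral DG (5 and 1 without replicate 4, or with replicates 4 and 5 alone). The replication licensing genes *Mcm6* (50.2 ± 3.57 CPM against 26.7 ± 1.75 CPM; 0.91) and *Mcm5* (0.48) were the best expressed of the 8. *Mki67* and *Top2a*, markers of dividing cells, were among them at low counts (4.14 ± 0.445 CPM against 2.31 ± 0.362 CPM; 5.36 ± 0.782 CPM against 3.36 ± 0.568 CPM). When only genes over a TPM of 1 were tested, which leaves out such low genes, 2 were higher in dorsal DG and 1 in ventral DG. *Ccnd2*, cyclin D2 of neural progenitors, did not pass (-0.17 ± 0.06).

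Patterning and identity transcription factors were called in both directions, 16 of 58 tested in dorsal DG and 13 in ventral DG (11 and 14 without replicate 1, 11 and 12 with replicates 4 and 5 alone). Of the 8 nuclear receptors in this list 3 were called, all toward ventral DG. *Nr2f2* (COUP-TFII) had 8.68, 5.92, 7.99 and 6.29 CPM in dorsal and 26.4, 30.5, 28.9 and 31.8 CPM in ventral DG (-2.02 ± 0.10; adjusted p = 1.28e-09). *Rxrg*, a retinoid X receptor, had 1.15, 1.06, 0.897 and 1.01 CPM in dorsal DG and 3.84, 4.8, 4.86 and 3.95 CPM in ventral DG (-2.06 ± 0.15; adjusted p = 5.66e-08), and *Nr2f1* (COUP-TFI) differed less (43.3 ± 2.14 CPM against 61.1 ± 2.63 CPM; -0.50). Both members that differed most did so about 4-fold with no overlap of libraries.

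The TALE homeodomain factors *Meis1* (-1.46), *Meis2* (-0.89) and *Pbx3* (-0.61), which bind DNA together, were all higher in ventral DG, as were the zinc finger factors *Tshz2* (-0.87) and *Fezf2* (-0.72), the ETS factor *Etv1* (-0.68), *Sox5* (-0.54), *Tox* (-0.51; not without replicate 2 or replicate 4), *Lhx9* (-0.35) and the Maf-related *Nrl* (-0.69). Higher in dorsal DG, besides *Mafa*, were the zinc finger homeobox gene *Zfhx4* (32.7 ± 1.3 CPM against 14.3 ± 1.02 CPM; 1.19), the POU factors *Pou3f1* (0.90) and *Pou3f3* (0.51), *Mef2c* (252 ± 16.5 CPM against 148 ± 14 CPM; 0.77), a MADS box factor of activity-dependent transcription, and *Bcl11a* (0.57). *Nfix* (0.44), *Nfib* (0.43), *Tshz3* (0.45), *Emx1* (0.41), *Lef1* (0.37) and *Lmo3* (0.27) were higher in dorsal DG by less. *Lef1* and *Lmo3* did not pass without replicate 1. The group also had *Zic1* (26.7, 21.1, 14.5 and 15.7 against 14.6, 9.9, 9.8 and 10.8 CPM), *Zic2* (0.30; not without replicate 1, 2 or 4) and *Foxp2* (0.57), whose regions overlapped and which were highest in dorsal replicate 1, the library with the most habenula and thalamus RNA. Without replicate 1 *Zic1* kept a log2 fold change of 0.74, and *Foxp2* fell to 0.25 and did not pass, nor did it without replicate 4. The forebrain factors *Emx2* (-0.09 ± 0.06), *Lhx2* (-0.12 ± 0.05), *Satb1* (-0.15 ± 0.05) and *Lmo4* (-0.05 ± 0.05) did not pass.

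**Figure D4:**
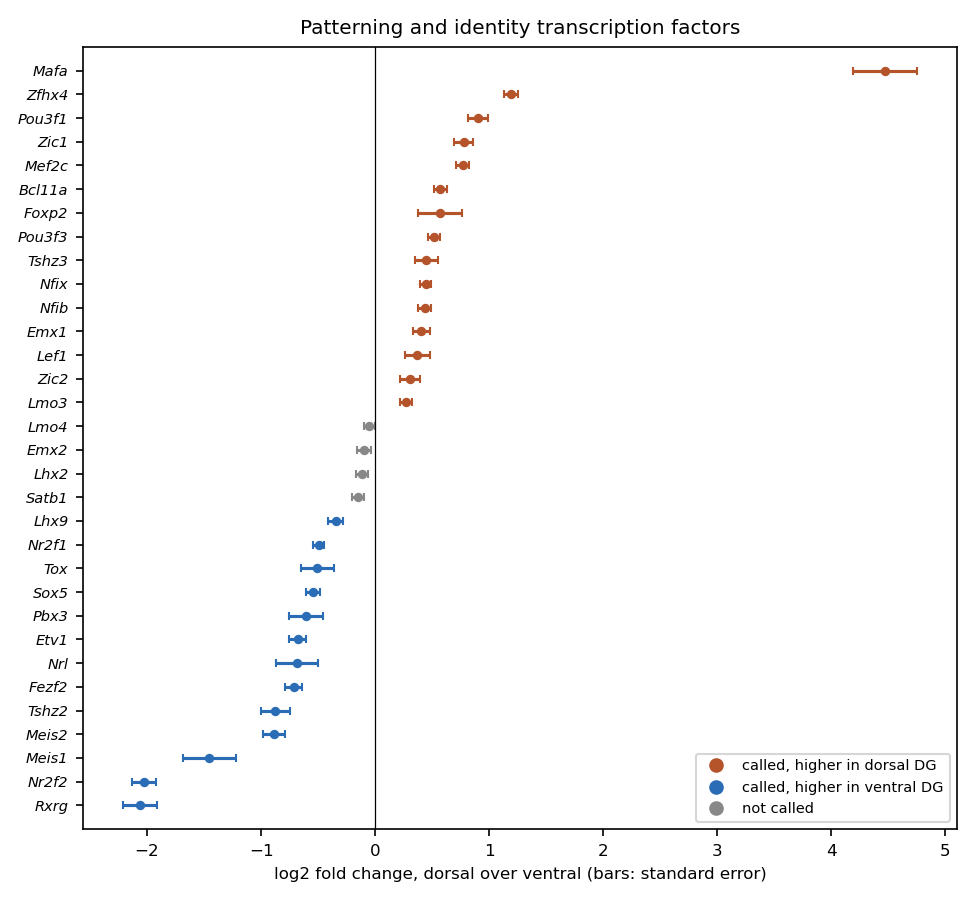
Log2 fold change, dorsal over ventral DG, of the 32 patterning and identity transcription factors named in the text, 15 of them called in dorsal DG, 13 in ventral DG and 4 not called, each with its standard error from the fit (n = 4 pools). *Mafa* lies far to the dorsal side at 4.47, and *Rxrg*, *Nr2f2* and *Meis1* lead the ventral side at -2.06, -2.02 and -1.46.

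The neuropeptide system leaned to ventral DG, where 24 of 49 tested members were higher, against 10 in dorsal DG (median -0.38). Of 57 members 7 were too low to test and 1 had no match in the count table. Among peptides, *Grp*, *Sst* and *Vip* are described above, and 11 of 21 were higher in ventral DG. In dorsal DG 4 were higher: *Nptx2*, a secreted pentraxin that clusters AMPA receptors (18.7 ± 2.43 CPM against 7.26 ± 0.808 CPM; 1.36), *Penk*, proenkephalin (15.1 ± 2.23 CPM against 8.33 ± 0.725 CPM; 0.85), *Pdyn*, prodynorphin (39.6 ± 3.13 CPM against 24.2 ± 2.05 CPM; 0.72), and *Nmb* (0.54; not without replicate 5). *Nptx2* is counted in this list but is not a neuropeptide, and it is also counted among the activity-induced and the postsynaptic genes. The peptides *Adcyap1* (PACAP, -1.28) and *Cartpt* (-1.29) were higher in ventral DG. Among receptors 13 of 28 were higher in ventral DG, where *Crhr1*, the receptor of corticotropin-releasing hormone, stood at 6.63 ± 0.423 CPM against 10.2 ± 0.423 CPM (-0.63) and the tachykinin receptor *Tacr3* at 0.171 against 2.99 CPM (-4.13 ± 0.26). *Oxtr*, the oxytocin receptor, had 3.24, 2.41, 3.37 and 3.07 CPM in dorsal DG and 9.64, 10.5, 11.7 and 11.9 CPM in ventral DG (-1.85 ± 0.10; adjusted p = 3.05e-09), with no overlap. *Cckbr*, a cholecystokinin receptor, led the 6 that were higher in dorsal DG (0.86), which also held the neuropeptide Y receptor *Npy1r* (44.7 ± 4.35 CPM against 25.6 ± 0.50 CPM; 0.80), while *Npy2r* was higher in ventral DG (-0.40). *Scg2*, secretogranin II, was the best expressed member that did not pass the fold limit (0.24 ± 0.05).

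Of 3 tested dopamine receptors 2 were higher in dorsal DG, and of 11 serotonin receptors 4 were higher in ventral DG and 2 in dorsal DG. Both called dopamine receptors, *Drd1* and *Drd5* (21.9 ± 1.39 CPM against 12.9 ± 1.06 CPM; 0.76), act through cyclic AMP, and the third did not pass. *Htr2c*, a serotonin receptor that couples to phospholipase C and is abundant in choroid plexus, had 8.11, 3.51, 3.59 and 3.63 CPM in dorsal and 23.1, 27.4, 28.6 and 35.2 CPM in ventral DG (-2.59 ± 0.19; adjusted p = 6.53e-08). Its highest dorsal value was in replicate 1 and its highest ventral value in replicate 5, the libraries of each region with the most choroid plexus RNA. *Htr7* (-1.14), *Htr3a* (-0.80) and *Htr1a* (-0.53) were the other ventral members. *Htr2a* (0.34) and *Htr4* (0.32) were higher in dorsal DG. Of 10 acetylcholine receptors 3 were called each way, with the muscarinic *Chrm1* higher in dorsal DG (201 ± 10.1 CPM against 144 ± 8.53 CPM; 0.48) and *Chrnb2* not passing (0.09 ± 0.05).

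Of 38 tested glutamate receptor genes 14 were higher in dorsal DG and 5 in ventral DG (median 0.20). *Grm2*, a presynaptic metabotropic receptor of mossy fibers, had 79.5, 72.1, 77.8 and 78.5 CPM in the dorsal libraries and 31.1, 31.7, 37.3 and 34 CPM in the ventral ones (2.3-fold higher; adjusted p = 3.09e-10). AMPA receptor and auxiliary subunits had 8 of 16 higher in dorsal DG, led by *Gsg1l* (1.27) and *Cacng5* (1.25), and *Gria4* higher in ventral DG (-0.43). The NMDA receptor genes *Grin1* (0.43), *Grin2a* (686, 638, 704 and 735 against 412, 457, 499.9 and 491 CPM; 0.57 ± 0.05) and *Grin2b* (0.57) were all higher in dorsal DG, with no overlap, and *Grin3a* in ventral DG (-0.39). Of 9 kainate and delta receptor genes 3 were higher in ventral DG (*Grik1*, -0.86; the auxiliary *Neto1*, -0.65; *Grik4*, -0.49) and *Grik3* in dorsal DG (0.67), with a median of 0.07. *Gria2*, the AMPA subunit that limits calcium entry, was under the fold limit (0.23 ± 0.06).

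GABA and glycine receptor genes split by subunit. *Gabrd* and the GABA-B auxiliary *Kctd16* (0.52) were higher in dorsal DG, among 5 of 20. *Gabra3* (11.2, 13.6, 13.2 and 12.5 against 27.7, 31.5, 28.7 and 30.7 CPM; -1.23 ± 0.06), *Gabrg1* (-0.65) and the glycine receptor gene *Glra3* (-1.28) were the 3 that were higher in ventral DG.

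Potassium channel genes leaned to dorsal DG, with 24 of 60 higher there and 7 higher in ventral DG (median 0.19). *Kcnj2*, an inward rectifier that holds the resting potential, had 36.7, 33.8, 31 and 31.3 CPM in dorsal DG and 14.1, 14.5, 12 and 10.1 CPM in ventral DG (1.40 ± 0.07; adjusted p = 7.27e-10), and *Kcnj11*, the pore of ATP-sensitive channels (0.90), and *Kcnk1*, a leak channel (0.82), were higher there too, as was *Kcnd2*, the A-type channel of dendrites (0.70). *Kcnq5*, which carries the M-current, was the main exception with 53, 38.9, 48 and 47.9 CPM in dorsal and 125, 128, 128 and 149 CPM in ventral DG (-1.50 ± 0.07; adjusted p = 3.19e-10). *Kcnj16* (-1.35) and *Kcns1* (-0.74) were also higher in ventral DG.

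Of 28 sodium, calcium and HCN channel genes 10 were higher in dorsal DG and 4 in ventral DG. The T-type calcium channels were opposed: *Cacna1h* was higher in dorsal DG (188 ± 9.2 CPM against 101 ± 5.09 CPM; 0.89) and *Cacna1i* in ventral DG (38.4, 39.2, 40.6 and 41.7 against 94.7, 103, 96.1 and 104 CPM; -1.31 ± 0.05). *Cacna1e*, an R-type channel (0.63), and *Scn4b*, a sodium channel beta subunit (1.13), were higher in dorsal DG. *Cacna2d1* was under the fold limit (0.20 ± 0.05).

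Release genes were called evenly, 11 of 42 in dorsal and 10 in ventral DG (median -0.01), with large and opposite changes of single genes. *Rph3a*, rabphilin, had 349, 318, 316 and 324 CPM in dorsal DG and 149.6, 144, 147 and 132 CPM in ventral DG (1.19 ± 0.05; adjusted p = 2.47e-10), and *Doc2b*, a calcium sensor of spontaneous release, had 153 ± 17.4 CPM against 64.3 ± 7.36 CPM (1.25). *Sv2b*, a synaptic vesicle glycoprotein, had 317, 249, 343 and 318 CPM in dorsal DG and 576, 566, 642 and 674 CPM in ventral DG (-1.01 ± 0.06; adjusted p = 5.58e-09). *Cplx1*, complexin (-0.60), and *Stx1a*, syntaxin (-0.57), were higher in ventral DG, and *Snap25* did not pass (-0.13 ± 0.05). Of 49 postsynaptic scaffold, kinase and adhesion genes 18 were higher in dorsal DG and 5 in ventral DG. *Nptx2*, *Lrrtm4* and *Ppp1r1a*, an inhibitor of protein phosphatase 1 (0.88), led the first, and *Homer3* (-0.43), *Cbln2* (-0.39; not without replicate 2 or replicate 5) and *Slitrk4* (-0.35) the second, while *Nptx1* was under the fold limit in a difference of 0.26 ± 0.06. With the trend on gene length removed, 11 of these were higher in dorsal DG and 6 in ventral DG.

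Axon guidance genes held 23 of 65 that were higher in dorsal DG and 10 in ventral DG. Eph receptors, which sense membrane-bound ephrins, had 7 of 12 higher in dorsal DG and 1 higher in ventral DG (median 0.62). *Epha7* had 425, 361, 413 and 406 CPM in the dorsal and 166, 146, 189 and 160.0 CPM in the ventral libraries (1.28 ± 0.05; adjusted p = 1.91e-10), with no overlap. *Epha5* (178 ± 13.7 CPM against 74.3 ± 7.89 CPM; 1.26) and *Epha4* (835 ± 76.2 CPM against 461 ± 52 CPM; 0.86) were the next largest. *Ephb6* was the exception (47.7 ± 1.94 CPM against 78.1 ± 3.98 CPM; -0.71). Among 8 ephrins 2 were higher in ventral DG, with *Efnb2* at 10.1, 10.6, 10.4 and 9.25 against 17.9, 21.3, 20.1 and 22.7 CPM (-1.02 ± 0.08), and *Efna5* was higher in dorsal DG at a low count (0.51; not without replicate 1, 2 or 4). *Robo3*, a Roundabout receptor of axon guidance (1.70), and *Sema5b* (1.38) were higher in dorsal DG, *Plxnc1*, a semaphorin receptor, was higher in ventral DG (-0.67) and *Sema6b* did not pass (-0.10 ± 0.05).

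Clustered protocadherins, the surface proteins that give single neurons their identity, were nearly all on the dorsal side. Of 54 tested genes 36 were higher in dorsal DG and none in ventral DG, and 53 had a log2 fold change above 0 (median 0.47). In the beta cluster 19 of 21 were higher in dorsal DG, with *Pcdhb2* (4.77 ± 0.403 CPM against 2.39 ± 0.361 CPM; 1.00) and *Pcdhb16* (0.69) among them, in the gamma cluster 13 of 21 (*Pcdhga12*, 0.88) and in the alpha cluster 4 of 12. *Pcdhgc3*, the C-type member with the highest count, did not pass (0.04 ± 0.05). Isoforms of the alpha and gamma clusters share their last exons and copies of the beta cluster are alike in sequence, so counts of single members are uncertain, since fragments that fit several genes were not counted. With the length trend removed 35 were higher in dorsal DG.

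Classical cadherins and other protocadherins were mixed, with 4 of 25 higher in dorsal DG (*Pcdh8*, 0.88; *Cdh8*, 0.57; *Pcdh17*, 0.56) and 7 in ventral DG (*Cdh13*, -0.59; *Pcdh11x*, -0.49; *Cdh10*, -0.44). Extracellular matrix genes leaned to ventral DG, where 16 of 54 were higher, against 6 in dorsal DG (median -0.22). Collagens had 10 of 25 higher in ventral DG and 1 in dorsal DG, with *Col12a1* at -1.12. *Dcn*, decorin, had 14, 9.96, 10.3 and 9.36 CPM in dorsal and 24.4, 26.3, 19.2 and 25.3 CPM in ventral DG (-1.13 ± 0.10), and *Prelp*, another small leucine-rich proteoglycan, had a log2 fold change of -0.70. *Acan*, aggrecan (8.43, 8.57, 11.3 and 7.9 against 2.42, 3.1, 3.08 and 2.67 CPM; 1.68 ± 0.10), and *Tnr*, tenascin R (252 ± 17.7 CPM against 165 ± 21.1 CPM; 0.61), both of perineuronal nets, and the glypicans *Gpc4* (0.65) and *Gpc1* (0.38) were higher in dorsal DG. Their groups did not lean to dorsal DG as a whole. Of 13 net and hyaluronan genes 3 were higher in dorsal DG and 3 in ventral DG (median -0.03). Of 9 tested glypicans and syndecans only 2 had a log2 fold change above 0 (median -0.22). The summed fibroblast and meninges markers, which share decorin and lumican with the matrix list, were 84.6 to 98.7 CPM in dorsal and 107 to 127 CPM in ventral DG, and their part in the matrix genes was not tested.

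Copines, calcium-dependent membrane-binding proteins, were called in 7 of 8 tested members and in opposite directions. *Cpne9* (41.7, 33.4, 32.9 and 34.9 against 12.3, 11.6, 12.3 and 10.4 CPM; 1.62 ± 0.07), *Cpne5* (0.49) and *Cpne4* (0.33; under the fold limit without replicate 1) were higher in dorsal DG. *Cpne7*, *Cpne2* (12.8, 13.6, 14.2 and 11.7 against 39.6, 41.9, 38.8 and 42.5 CPM; -1.64 ± 0.07), *Cpne8* (-0.33) and *Cpne6* (-0.29) were higher in ventral DG, and *Cpne3* did not pass (-0.11 ± 0.06).

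In the retinoic acid list 4 of 19 were higher in dorsal DG and 8 in ventral DG. *Cyp26b1*, which removes the signal, and *Aldh1a1*, which makes it (124 ± 13.3 CPM against 85.1 ± 9.4 CPM; 0.54), were both higher in dorsal DG, as was *Rbp4* (0.50; not without replicate 1, 4 or 5), while the receptors *Rxrg* and *Rxra* (-0.55) and *Dhrs3*, a retinaldehyde reductase (-0.62), were higher in ventral DG. Wnt genes were called 10 each way among 38. *Nkd2*, a feedback inhibitor of Wnt signaling, had 3.93, 3.31, 3.12 and 3.33 CPM in dorsal and 16.5, 16.3, 15 and 20.7 CPM in ventral DG (-2.32 ± 0.10; adjusted p = 1.54e-10). The ligand *Wnt4* (-1.81) and the secreted antagonist *Frzb* (-1.01) were higher in ventral DG, and the ligands *Wnt9a* (0.83) and *Wnt5a* (0.32; not without replicate 1 or replicate 4) and the target gene *Axin2* (0.48) in dorsal DG.

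Of 36 genes of BMP, TGF-beta and activin signaling 9 were higher in dorsal DG and 7 in ventral DG. The activin subunit *Inhba* (3.35, 3.35, 3.97 and 3.44 against 1.28, 1.36, 1.17 and 0.952 CPM; 1.56 ± 0.15) and the activin antagonist *Fst* were both higher in dorsal DG, and the antagonist *Chrd* (-0.39) and the follistatin-like *Fstl1* (-0.39) in ventral DG. Insulin-like growth factor binding proteins were opposed, with *Igfbp5* higher in dorsal DG (283 ± 7.13 CPM against 165 ± 14.6 CPM; 0.79) and *Igfbp3* (6.34, 6.21, 7.47 and 5.73 against 20.1, 22.2, 18.5 and 21 CPM; -1.67 ± 0.09), *Igfbp2* (-0.93) and *Igfbp6* (-0.41) in ventral DG. The neurotrophins *Ntf3* (0.69) and *Bdnf* (72.4, 62.6, 73.3 and 74.1 against 44.4, 43.2, 45.8 and 43.2 CPM; 0.67 ± 0.05) and the receptor *Ntrk3* (0.48) were higher in dorsal DG, *Ntrk2*, the receptor of BDNF, did not pass (-0.07 ± 0.05), and *Fgf11* was higher in ventral DG (-0.66).

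Activity-induced genes stood at a higher baseline in dorsal DG, with 16 of 32 higher there and 2 in ventral DG (median 0.27). *Egr1*, an immediate early transcription factor, had 19.4, 18.2, 22.8 and 25.6 CPM in the dorsal and 8.97, 9.19, 11.2 and 11.8 CPM in the ventral libraries (1.06 ± 0.06; adjusted p = 8.08e-09). *Fos* had 7.1, 4.78, 7.94 and 7.9 CPM in dorsal and 3.63, 3.18, 3.4 and 4.65 CPM in ventral DG (0.89 ± 0.11; adjusted p = 1.36e-05), with no overlap for either gene. *Npas4* (2.63 ± 0.173 CPM against 1.06 ± 0.314 CPM; 1.30) and *Arc*, a synaptic effector (125 ± 17.8 CPM against 83.3 ± 2.81 CPM; 0.57), were higher in dorsal DG too. *Nptx2* and *Inhba* led the effectors, *Pcsk1*, a prohormone convertase (-0.73), and *Gadd45b* (-0.45) were higher in ventral DG, and *Jun* did not pass (0.08 ± 0.05).

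Of 17 corticosteroid genes 7 were higher in dorsal DG and 1 in ventral DG (2 without replicate 2 or replicate 4). *Nr3c2*, the mineralocorticoid receptor, had 421, 382, 432 and 448 CPM in dorsal and 269, 274, 293 and 291 CPM in ventral DG (0.58 ± 0.05; adjusted p = 3.95e-07), and *Nr3c1*, the glucocorticoid receptor, 157 ± 3.7 CPM against 125 ± 3.28 CPM (0.33). Among response genes *Klf9* and *Per1* (0.36) were higher in dorsal DG, and *Tsc22d3* (GILZ; -0.49) in ventral DG. Circadian clock genes had 5 of 16 higher in dorsal DG and none in ventral DG, with *Bhlhe41* (0.48), *Arntl* (0.40) and *Cry1* (0.40) leading, and 8 were higher in dorsal DG without replicate 2 or without replicate 4. Genes of DNA methylation and demethylation had 8 of 18 higher in dorsal DG and 1 in ventral DG: 3 of 4 writers, 4 of 7 demethylation genes, with *Tet3*, which oxidizes methylcytosine, at 58.4, 52.7, 52.4 and 54 against 34.3, 41.3, 37.5 and 39 CPM (0.52 ± 0.06) and *Gadd45a* at 0.66, and the reader *Mbd4* (0.79). The writers were *Dnmt1* (0.29), *Dnmt3a* (0.28) and *Uhrf1* (0.44). None of the 3 passed without replicate 1, nor did *Dnmt3a* without replicate 4 or *Uhrf1* without replicate 4 or replicate 5. With the length trend removed, or without replicate 1 or replicate 4, 5 of them were higher in dorsal DG.

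Imprinted genes, expressed from 1 parental allele, leaned to ventral DG, where 12 of 22 were higher, against 3 in dorsal DG (median -0.31). *Nnat*, neuronatin, had 82.5, 99.2, 97.1 and 89.1 CPM in dorsal DG and 379.6, 381, 333 and 358 CPM in ventral DG (-1.98 ± 0.06; adjusted p = 1.99e-11). *Plagl1*, a zinc finger factor that acts on other imprinted genes, had 4.04, 3.55, 3.33 and 2.88 CPM in dorsal DG and 12.2, 15.9, 14.5 and 16.5 CPM in ventral DG (-2.09 ± 0.12; adjusted p = 3.05e-09). *Dio3*, which inactivates thyroid hormone, had 0.381 against 3.25 CPM (-3.08 ± 0.19). *Zdbf2* was higher in ventral DG (-0.69), *Kcnq1ot1* (0.58), *Peg10* (0.55) and *Usp29* (0.32; not without replicate 1) in dorsal DG, and *Peg3* did not pass (0.16 ± 0.07). Reads were not assigned to alleles.

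Genes of oxidative phosphorylation were called toward ventral DG alone. Of 84 tested nuclear genes of the respiratory complexes and ATP synthase 49 were higher in ventral DG, none was higher in dorsal DG, 35 had no call, and 83 had a log2 fold change below 0 (median -0.30). The ventral count was 37 without replicate 1 (median -0.25) and 52 to 54 with another pool left out. With replicates 4 and 5 alone it was 35 (median -0.24). *Cox7b* had 125, 151, 136 and 128 CPM in dorsal and 213, 206, 188 and 173 CPM in ventral DG (-0.53 ± 0.06; adjusted p = 4.33e-06), and the best expressed member, *Atp5b*, was under the fold limit (1154 ± 21.3 CPM against 1298 ± 13.7 CPM; -0.17 ± 0.05). Calls came from complex I (22 of 38), complex IV (11 of 17), ATP synthase (11 of 17), complex III (4 of 8) and complex II (1 of 4). Cytosolic ribosomal protein genes, likewise short, had a median of -0.13 with 3 of 77 higher in ventral DG (*Rpl41*, -0.39; *Rpl39*, -0.28; *Rpl11*, -0.28). The count was 1 without replicate 1, 13 without replicate 2 and 5 without replicate 5.

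The direction of the regional difference went with gene length. Over 10 classes of equal size by exonic length, the median log2 fold change went from -0.12 in the shortest class, up to 1469 bases, to 0.14 in the longest, from 9607 bases, and the share of genes higher in dorsal DG from 7.37% to 27.2%. The median exonic length was 5548 bases for genes higher in dorsal DG, 3356.5 for those higher in ventral DG and 4127 for the rest. The 2 libraries that stood apart by short genes, dorsal replicate 2 and ventral replicate 1, belonged to different regions. With a smooth trend on length taken out of each library, an alternative chosen after the data were seen, 26 oxidative phosphorylation genes were higher in ventral DG (median -0.21), no ribosomal protein gene passed (median -0.04), and 2166 and 2287 genes passed in all. What causes the trend was not tested.

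**Figure D5:**
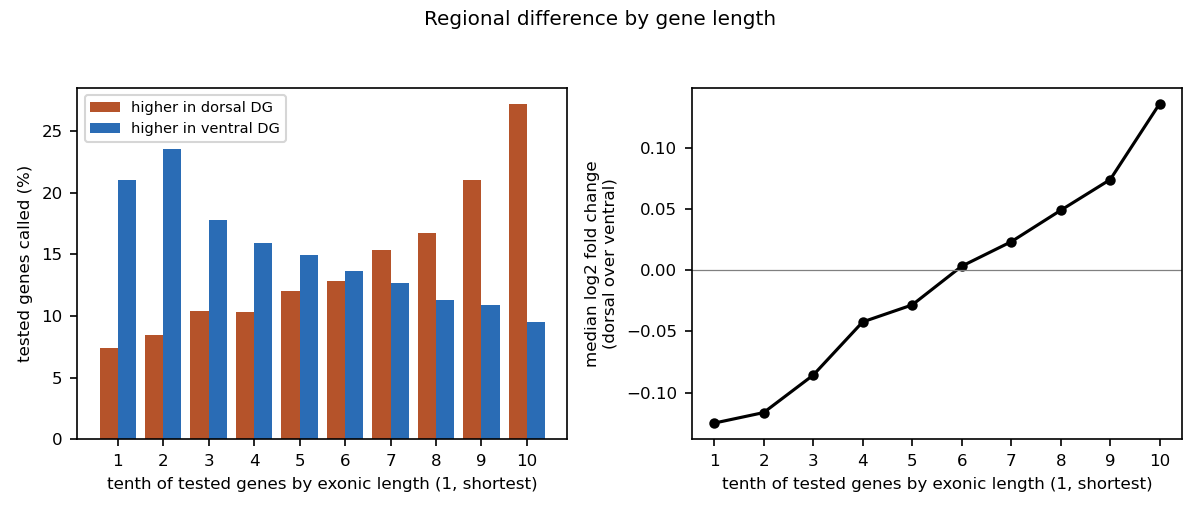
Left, share of tested genes that were higher in dorsal DG (red) or ventral DG (blue) in each of 10 classes of the tested genes by exonic length, in percent. Right, the median log2 fold change of each class, which runs from -0.12 in the shortest to 0.14 in the longest genes.

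Cholesterol synthesis genes had 7 of 23 higher in ventral DG and none in dorsal DG (median -0.22), with *Msmo1* (81.9 ± 2.57 CPM against 113 ± 3.05 CPM; -0.46), *Sqle* (-0.38) and *Mvk* (-0.32; not without replicate 1) named by size. Their regulator *Srebf2* was under the fold limit in the other direction (0.22 ± 0.05). Interferon response and MHC class I genes, and chaperones, differed little: each list had 1 gene higher in each region (2 interferon genes in dorsal and 2 chaperones in ventral DG without replicate 1). *Ifi27*, an interferon-inducible gene, had 13.5, 15.2, 14.4 and 16.1 CPM in dorsal and 39.1, 40.3, 35.3 and 38.8 CPM in ventral DG (-1.38 ± 0.06; adjusted p = 3.02e-10), and *Ddx58* was higher in dorsal DG (0.38). *Dnajb5* led the chaperones in dorsal DG (0.59) and *Hspa1b* in ventral DG (-0.33; not without replicate 4 or replicate 5). *B2m* (0.07 ± 0.05) and *Hspa8* (-0.04 ± 0.05) did not pass.

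The regional difference of SH mice was also compared with that of the EE mice, which are other animals (5 pools, 10 libraries). The EE difference was taken from the fit of 18 libraries, in which normalization and dispersion are shared with the SH libraries. The share of all tested genes that passed in EE was not counted. Of the 2360 genes higher in dorsal DG in SH, 2338 had the same direction in the EE pools and 1840 passed there too, and of the 2505 higher in ventral DG 2479 had the same direction and 2019 passed. The interaction of region and housing passed for 2 of 17040 genes (0.0117%; 882 had an unadjusted p under 0.05), and for none without SH replicate 2 (smallest adjusted p = 0.0501; 974 with an unadjusted p under 0.05). *Igfbp6* was higher in ventral DG in SH (-0.40) and higher in dorsal DG in EE (0.52), with 4.05 to 4.93 CPM in dorsal and 5.40 to 6.72 CPM in ventral SH libraries and 11.5 to 14.7 CPM in dorsal and 7.28 to 10.3 CPM in ventral EE libraries (adjusted p = 0.00478). *Acvr1c*, an activin-like receptor, differed between regions by 0.14 in SH and by 0.59 in EE (adjusted p = 0.00478). The third gene by p, *Gap43*, a growth cone protein, did not pass (adjusted p = 0.91).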

How the data were processed

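RNA of dorsal and ventral DG punches was sequenced as stranded paired-end libraries. Per the submitters' processing notes the tools were Trim Galore 0.4.0, STAR 2.5.1b and RSEM 1.2.30 with build mm10, and the study's methods name the Gencode vM7 annotation. The authors deposited gene counts of STAR, without strand and for either strand, and RSEM tables with expected counts and TPM values; replicate numbers and regions came from the labels. The stranded count column was used as deposited for 46480 genes. The lines for unmapped, multiply mapped, unassigned and ambiguous fragments were left out of library sizes: 9.27% to 12.3%, 10.1% to 14.1%, 10.5% to 13.5% and 0.880% to 1.16% of all fragments. The median unmapped share was 10.0% in dorsal and 11.5% in ventral libraries. The median multiply mapped share was 10.3% in dorsal and 13.5% in ventral libraries, with dorsal replicate 2 at 13.75%. Symbols, positions and exonic lengths came from Gencode vM21 by gene ID (45968 matched).

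Genes with a count of more than 10 in at least 2 libraries were tested with edgeR 4.0.16 (R 4.3.3, TMM, quasi-likelihood test, pool as a block, Benjamini-Hochberg adjustment), and called at an adjusted p under 0.05 and a fold over 1.2. CPM values used TMM library sizes. The pools pair the libraries because the study took both regions from the same mice; deviations of paired libraries correlated by -0.09, 0.14, 0.07 and 0.11, within the range of libraries of different pools (-0.20 to 0.22). No source names separate litters or days for the pools, so p-values measure the spread between these pools. The interaction and the EE difference used 1 fit of 18 libraries with the pool as a block. In simulated counts of this comparison the test called 2 of 16337 genes without any change, and recovered 75% of 200 genes changed 1.5-fold (9 of 159 calls false) and 92% of 200 changed 2-fold (13 of 197 false). The simulated counts were drawn from each gene's mean and fitted dispersion. They held no pool effect, length trend or difference in punch content, so they do not measure false calls from these sources.

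The members and all gene lists were chosen with earlier results of these data known. Named were the 10 largest called genes in each direction with a TPM over 1 in at least 3 libraries and the same direction in all pools; in each list up to 3 such called genes in each direction and the best expressed gene without a call; 2 markers of each cell type; 3 genes of the interaction; and any patterning factor; a few genes that these rules name are not reported here. Other genes (such as *Prox1*, *Bdnf*, *Acan*, *Pdyn* or the *Grin* genes) were named after their values were seen. The alternatives were the fit without the block, fits of 4 groups, replicate 3 included, the likelihood ratio test, DESeq2 1.42.0, RLE factors, other filters, RSEM expected counts (rounded), unstranded counts, no fold limit and each pool left out. Deposited TPM values served only as filters, and DNA methylation files and the EE TPM values were not used here. *Galr3* was not matched in the table and *Mafa*, *Trhr* and *Cpne7* had no promoter entry.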

Additional observations from a re-analysis of the deposited data

Results flagged for a closer look

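In 40 of 578 groups of 4 libraries the highest or lowest value lay far from the others by Dixon's test (about 1 in 20 groups does so by chance), and each is given with the range of the other 3 libraries of its region. Dorsal replicate 1, the dorsal library with the most choroid plexus and the most habenula and thalamus RNA, stood out most often. Dorsal replicate 1 was above the other libraries for *Calml4* at 0.613 CPM (the others 0.163 to 0.225 CPM), *Enpp2* at 219 CPM (the others 119.9 to 127 CPM), *Folr1* at 1.33 CPM (the others 0.128 to 0.286 CPM) and *Htr2c* at 8.11 CPM (the others 3.51 to 3.63 CPM). It was also above them for *Kcnj13* at 1.37 CPM (the others 0.0854 to 0.225 CPM), *Prkcd* at 100.8 CPM (the others 73.5 to 77.5 CPM), *Srebf2* at 123 CPM (the others 115 to 116 CPM) and *Ttr* at 174 CPM (the others 6.11 to 29.4 CPM). It was also above them for the summed choroid plexus markers at 446 CPM (the others 149 to 181 CPM). Dorsal replicate 1 was below the other libraries for *Ccnd1* at 26.0 CPM (the others 31.6 to 32.8 CPM), *Mpped1* at 49.0 CPM (the others 68.2 to 71.2 CPM) and *Pou3f1* at 7.75 CPM (the others 12.9 to 13.1 CPM). Dorsal replicate 2 was above the other libraries for *Rpl11* at 254 CPM (the others 182 to 189.5 CPM). Dorsal replicate 2 was below the other libraries for *Bdnf* at 62.6 CPM (the others 72.4 to 74.1 CPM), *Kcnd2* at 207 CPM (the others 233 to 236 CPM) and *Tnr* at 225 CPM (the others 259.7 to 262 CPM). Dorsal replicate 4 was above the other libraries for *Inhba* at 3.97 CPM (the others 3.35 to 3.44 CPM), *Map3k15* at 2.86 CPM (the others 1.67 to 1.76 CPM) and *Serpina3g* at 0.342 CPM (the others 0.0721 to 0.0817 CPM). Dorsal replicate 4 was below the other libraries for *Dhrs3* at 12.7 CPM (both lowest and highest of the others 13.3 CPM), *Fam163b* at 46.2 CPM (the others 50.4 to 50.9 CPM) and *Tox* at 1.88 CPM (the others 2.38 to 2.47 CPM). Dorsal replicate 5 was above the other libraries for *Fst* at 7.38 CPM (the others 6.19 to 6.31 CPM). Ventral replicate 1, with more counts on short genes than the rest of its region, stood out in both directions. Ventral replicate 1 was above the other libraries for *Igfbpl1* at 5.09 CPM (the others 3.15 to 3.4 CPM), *Npas4* at 1.53 CPM (the others 0.878 to 0.945 CPM), *Zfhx4* at 15.8 CPM (the others 13.7 to 13.8 CPM) and the summed oligodendrocyte markers at 3012 CPM (the others 2517 to 2593 CPM). Ventral replicate 1 was below the other libraries for *Etv1* at 26.5 CPM (the others 35.3 to 35.5 CPM), *Fezf2* at 13.0 CPM (the others 13.9 to 13.9 CPM), *Nfib* at 234 CPM (the others 263 to 268 CPM) and *Stx1a* at 79.5 CPM (the others 80.3 to 80.4 CPM). It was also below them for *Wnt5a* at 6.58 CPM (the others 9.52 to 10.1 CPM). Ventral replicate 2 was above the other libraries for *Grik1* at 15.9 CPM (the others 13.8 to 13.9 CPM). Ventral replicate 4 was above the other libraries for *Mcm6* at 29.3 CPM (the others 25.6 to 26.0 CPM). Ventral replicate 4 was below the other libraries for *Penk* at 7.25 CPM (the others 8.65 to 8.73 CPM). Ventral replicate 5 was above the other libraries for *Cpne7* at 224 CPM (the others 198 to 200.5 CPM), *Ephb6* at 84.0 CPM (the others 75.6 to 76.8 CPM), *Foxj1* at 8.45 CPM (the others 5.18 to 5.69 CPM) and *Kcnq5* at 149 CPM (the others 125 to 128 CPM). Ventral replicate 5 was below the other libraries for *Ntf3* at 8.97 CPM (the others 9.79 to 9.87 CPM).

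The regional difference changed with housing for 2 genes, by the test of the interaction in 18 libraries. For *Igfbp6* the difference in SH minus that in EE was -0.92 ± 0.12 (SE) on the log2 scale, with all SH pools lower and all EE pools higher in dorsal than in ventral DG, and for *Acvr1c* it was -0.46 ± 0.06 (both adjusted p = 0.00478 in edgeR's quasi-likelihood test). Both lost the call without SH replicate 2.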

How the results depend on the processing

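The 18 alternatives changed 1 choice each, apart from the fit of 4 groups without the block, with the pool as a block unless stated, and 2 of them (a length trend removed, and replicates 4 and 5 alone) were chosen after the data were seen. Counts of genes higher in dorsal and in ventral DG went from 2360 and 2505 to 3743 and 3859 without the fold limit, to 1763 and 1660 when only genes over a TPM of 1 were tested, which also took the genes over 2-fold from 796 to 190, and to 1930 and 1979 with DESeq2. Without the block 2322 and 2453 genes passed, of which 2296 and 2427 were the same genes, so the pairing moved no count by over 1.5 times apart from the interaction, which passed for 1 gene without the block and for 0 to 2 genes when 1 pool was left out. Leaving out 1 pool gave 2154 to 2258 dorsal, 2273 to 2501 ventral and 702 to 846 genes over 2-fold. Of 48 lists 21 had more dorsal than ventral calls, and 20 to 24 under the alternatives. The side with more calls turned for 3 lists: patterning factors (16 dorsal and 13 ventral) had 11 and 14 without replicate 1 (11 to 17 and 13 to 14 over the pools left out) and 11 and 12 with replicates 4 and 5 alone, BMP, TGF-beta and activin (9 and 7) had 9 and 10 with replicate 3 included, and CA1 and subiculum markers (2 and 3) had 2 and 1 without the block, in fits of 4 groups with and without it, with DESeq2 and without replicate 1 or 2, and 2 and 0 with replicates 4 and 5 alone. Of 273 genes named, 226 kept their direction and their side of the threshold under all alternatives in which they were tested, and those that turned were *Reln* (-0.0611) and *Synpr* (-0.0522), neither of which passed, with the length trend removed. Calls were lost without replicate 1 for 17 genes, among them *Foxp2* (0.25; adjusted p = 0.325), *Wnt5a* (0.12; 0.258), *Lef1* (0.24; 0.0963), *Rbp4* (0.42; 0.0943), *Uhrf1* (0.43; 0.0752) and *Efna5* (0.45; 0.0667) by the test, and *Cpne4*, *Dnmt1*, *Dnmt3a*, *Fibcd1*, *Lmo3*, *Mpped1*, *Mvk*, *Rpl11*, *Rpl39*, *Usp29* and *Zic2* by the fold limit. They were lost without replicate 2 for 7 genes (*Cbln2*, *Efna5*, *Fibcd1*, *Mpped1*, *Tagln*, *Tox*, *Zic2*), without replicate 4 for 11 (*Dnmt3a*, *Efna5*, *Foxp2*, *Hspa1b*, *Rbp4*, *Rpl11*, *Tagln*, *Tox*, *Uhrf1*, *Wnt5a*, *Zic2*) and without replicate 5 for 5 (*Cbln2*, *Hspa1b*, *Nmb*, *Rbp4*, *Uhrf1*). With the TPM filter 7 choroid plexus markers, 2 ependyma markers, 3 dorsal and 7 ventral Wnt genes and 4 dorsal and 6 ventral matrix genes passed, since low genes were not tested. Where no cause is given for a change, the cause was not tested.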

Other observations

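Small nucleolar RNA genes and long intergenic RNA genes, which no list held, were called as follows. Of 67 tested small nucleolar RNA genes 7 (10.4%) were higher in dorsal DG and none in ventral DG. Of 392 lincRNA genes 48 (12.2%) were higher in dorsal DG and 61 (15.6%) in ventral DG. Over all tested genes the shares were 14.2% in dorsal and 15.1% in ventral DG, so neither class had a dorsal share above that of all genes. Of the 225 TEC genes higher in dorsal DG, 114 differed over 2-fold, which made up a good part of the 325 dorsal genes over 2-fold.

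*Xist*, which is expressed from the inactive X chromosome of females, had 0.577, 0.653, 0 and 0 CPM in dorsal and 0.0712, 0.0378, 0 and 0 CPM in ventral replicates 1, 2, 4 and 5, although the animals were labelled male. The gene was looked at after its values were seen and was in no list.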
